A study of Mus musculus with 20 samples.

Results

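The cytosolic ribosomal protein genes are the genes of the proteins that, with ribosomal RNA, make up the ribosome of the cytosol. Members were the protein-coding genes of the deposited table whose symbols follow the Rpl and Rps pattern, together with Rplp0, Rplp1, Rplp2 and Rpsa, and that reached 1 TPM (an abundance per transcript length, scaled to the same total in every library) in at least 5 libraries. Of 83 genes with such names 80 were members, 48 of the large and 32 of the small subunit, out of 32285 genes in the table and 12350 tested. The rule itself uses names and a minimum level, not differences between groups, but it was set with earlier results of these data known. The 3 named genes outside the filter were Rpl3l, a paralog of Rpl3 known from striated muscle, with at most 0.24 TPM in any library, and the paralogs Rpl39l and Rpl10l, known from testis, both listed at 0 in all 20 libraries. The members closest to the filter, Rpl22l1 and Rpl7l1, averaged 132 and 140 TPM, far above it.

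RNA was measured in immortalised primary murine cancer-associated fibroblasts (CAFs), the collagen-making cells of a tumour's stroma, from a study of pancreatic cancer, in 4 groups of 5 libraries. The CAFs of the first group received EIPA (25 uM) and those of the second only its vehicle, both in 0.2 mM glutamine, and those of the third received IL-1a (25 pg/mL) and those of the fourth only vehicle, both in 4 mM glutamine. All were harvested after 32 h, and DMSO, the EIPA vehicle, was present in all 4. EIPA is an amiloride analogue that blocks sodium-proton exchange and is used to stop macropinocytosis, the engulfment of extracellular fluid, and IL-1a is an inflammatory cytokine. The protocol text has 25 mM EIPA and the sample titles 25 uM, the value used here, and the labels name neither the number of cell lines nor whether replicates were separate cultures, so a p-value here weighs differences against the spread of these libraries alone, which may be technical.

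A ribosome has a small subunit, which reads the mRNA, and a large subunit, which joins amino acids and lets the chain out through an exit tunnel. Most of the proteins are needed once per ribosome, and cells make them in balanced amounts, largely by controlling translation: their mRNAs begin with a run of pyrimidines (the TOP motif) through which mTORC1, a kinase that senses amino acids including glutamine supply, turns their translation on, while the repressor LARP1 binds and stabilises them when mTORC1 is off. Levels of mRNA, as measured here, therefore need not follow how much of each protein is made.

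Every library summed to the same total, as TPM does, so sequencing depth is unknown and no counting interval can be given. The fibroblast genes Col1a1, Col1a2 and Vim were expressed in every library, and Lum reached at most 0.42 TPM. Of the defining genes of other cells, Ptprc (leukocytes) averaged 0.0005 TPM, Sox10 (Schwann cells) was listed at 0, Epcam (epithelium) averaged 0.103 and Pecam1 (endothelium) 0.0775 TPM, while Cdh5 averaged 0.008 TPM. Other genes on these lists were expressed, with Cd14 (leukocytes) at 15.7 TPM in EIPA and 7.14 TPM in vehicle at 0.2 mM glutamine, and Krt18 (epithelium) at 10.4 TPM in EIPA and 4.78 TPM in that vehicle. The summed leukocyte list ran from 14.7 to 17.2 TPM in EIPA and from 5.89 to 8.14 TPM in vehicle at 0.2 mM glutamine. At 4 mM glutamine it ran from 12.2 to 27.0 TPM with IL-1a and from 12.4 to 16.2 TPM in vehicle. The epithelial list, mostly Krt19, ran from 88.4 to 119 TPM in EIPA and from 133 to 205 TPM in vehicle at 0.2 mM glutamine. At 4 mM glutamine it ran from 165 to 360.3 TPM with IL-1a and from 185 to 395 TPM in vehicle. The endothelial list, mostly Kdr, ran from 6.34 to 8.98 TPM in EIPA and from 6.12 to 10.2 TPM in vehicle at 0.2 mM, and from 1.78 to 3.44 TPM with IL-1a and from 2.57 to 3.21 TPM in vehicle at 4 mM. The mural list, mostly Mcam, ran from 3.03 to 4.27 TPM in EIPA and from 7.05 to 9.93 TPM in vehicle at 0.2 mM, and from 6.75 to 11.5 TPM with IL-1a and from 7.35 to 12.5 TPM in vehicle at 4 mM. The Schwann list reached at most 1.92 TPM in any library. All 4 mesothelial markers (Msln, Upk3b, Krt19 and Wt1) were expressed, and their sum moved with the groups: it ran from 179 to 280.0 TPM in EIPA and from 298 to 427 TPM in vehicle at 0.2 mM, and from 474 to 825 TPM with IL-1a and from 524 to 908 TPM in vehicle at 4 mM glutamine. The sum of the 8 fibroblast markers did so too, with 1925 to 2238 TPM in EIPA and 3396 to 4063 TPM in vehicle at 0.2 mM, and 7630 to 9900 TPM with IL-1a and 9125 to 10175 TPM in vehicle at 4 mM glutamine. The part of these markers in the results below was not tested. In vehicle at 4 mM glutamine, replicate 3 had the lowest summed level of the members, and in an earlier analysis of these data IL-1a replicates 1 and 5 and vehicle replicate 5 at 4 mM glutamine stood apart on a principal component. Main results for IL-1a, glutamine and the difference between responses are also given without some of these libraries. In bulk RNA, fewer cells of a type and less RNA per cell cannot be told apart.

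Promoter sequence is shown first for the 3 members lowest at 0.2 mM against 4 mM glutamine in vehicle (Rpl37a, Rps26 and Rpl41), for 3 of the 5 highest (Rpl18, Rpl26 and Rpl13a) and for Rps2, the member that fell most with EIPA, because the changes described below divide these genes. Each window runs 5′ to 3′ on the strand of the gene from 100 bases before to 20 after the RefSeq start (GRCm38.p6). Capitals mark a match on either strand to CCGGAAG, the core bound by ETS-family factors such as GABP (CTTCCGG on the other strand), or to CTTTCC, a pyrimidine run of the kind at which these genes start (GGAAAG on the other strand). The windows lie at chr1:72711160-72711279 (plus strand), chr10:128626487-128626606 (minus strand), chr10:128549149-128549268 (minus strand), chr7:45717971-45718090 (plus strand), chr11:68901466-68901585 (plus strand), chr7:45128726-45128845 (minus strand) and chr17:24719963-24720082 (plus strand).
Rpl37a: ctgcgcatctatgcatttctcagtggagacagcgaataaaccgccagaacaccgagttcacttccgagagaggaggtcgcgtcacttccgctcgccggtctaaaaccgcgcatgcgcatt
Rps26: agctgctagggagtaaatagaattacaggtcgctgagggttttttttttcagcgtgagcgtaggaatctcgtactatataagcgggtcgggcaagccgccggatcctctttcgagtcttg
Rpl41: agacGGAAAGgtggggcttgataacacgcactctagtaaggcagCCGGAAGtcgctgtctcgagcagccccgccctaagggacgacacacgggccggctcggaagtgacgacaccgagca
Rpl18: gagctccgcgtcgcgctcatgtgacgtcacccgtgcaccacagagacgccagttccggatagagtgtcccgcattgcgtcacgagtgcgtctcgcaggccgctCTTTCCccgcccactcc
Rpl26: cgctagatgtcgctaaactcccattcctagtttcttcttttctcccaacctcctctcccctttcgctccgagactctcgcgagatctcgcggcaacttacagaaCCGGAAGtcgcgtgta
Rpl13a: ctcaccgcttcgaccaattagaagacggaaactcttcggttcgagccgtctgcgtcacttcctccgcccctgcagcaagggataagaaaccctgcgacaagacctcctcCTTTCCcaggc
Rps2: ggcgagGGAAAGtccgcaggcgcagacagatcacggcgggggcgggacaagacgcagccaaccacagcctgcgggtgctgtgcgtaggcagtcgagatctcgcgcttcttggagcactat

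In these windows the ETS core stood in Rpl41 and Rpl26, which moved in opposite directions at 0.2 mM glutamine, and neither motif was found in Rpl37a or Rps26. RefSeq had promoter entries of 300 bases for 60 of the 80 members and for 9644 tested genes. Over the whole 300 bases and both strands, CCGGAAG was present in 24 of 60 members (40.0%) and in 19.2% of all tested promoters. CTTTCC was present in 28 members (46.7%) and in 26.3% of all, and AAGATGG, the core of YY1 sites (CCATCTT on the other strand), in 9 members (15.0%) and in 7.5% of all. GGGCGG, the core bound by Sp factors (CCGCCC on the other strand), was present in 37 members (61.7%) and in 66.6% of all, and TATAAA, the core of the TATA box, read as TTTATA on the other strand, in 6 members (10.0%) and in 6.6% of all. The ETS core was present in 13 of 35 members that rose and 6 of 14 that fell at 0.2 mM glutamine and in 5 of 11 that were not called. Matches to the ETS and YY1 cores can overlap by a few letters. These are matches of letters in a window, and GENCODE places the first base of several of these genes elsewhere, at -2614 bases from the RefSeq start for Rpl18 and -1947 for Rps2, where negative means upstream.

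The members together made up between 12.1% and 16.5% of all TPM. Their share was 16.1% ± 0.386 in EIPA and 14.4% ± 0.265 in vehicle at 0.2 mM glutamine, and 13.5% ± 0.309 with IL-1a and 12.95% ± 0.491 in vehicle at 4 mM glutamine (SD, n = 5 each). EIPA libraries ranged from 15.5% to 16.5% and those of vehicle at 0.2 mM from 14.2% to 14.8%, so these groups did not overlap, and neither did vehicle at 0.2 mM and vehicle at 4 mM glutamine, where the highest library had 13.4%. With IL-1a the libraries ran from 13.2% to 13.8% and overlapped with those of vehicle at 4 mM, from 12.1% to 13.4%. The share was higher by 1.64 points with EIPA, by 1.47 points at 0.2 mM against 4 mM glutamine and by 0.51 points with IL-1a. Without vehicle replicate 3 at 4 mM glutamine, a check chosen after seeing the data, the IL-1a difference was 0.30 points. In the same check on each library of both vehicle groups, the difference at 0.2 mM against 4 mM glutamine ran from 1.26 to 1.58 points.

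The mitochondrially encoded mRNAs, the 13 protein-coding transcripts of the mitochondrial genome, had lower group means where the members' share was higher. All 13 fell with EIPA (median -0.72, 11 under quantile normalisation). At 0.2 mM against 4 mM glutamine 2 rose and 7 fell, or none and 8 after median-of-ratios scaling. Under quantile normalisation 3 rose and 3 fell there, with a median of -0.05, so their fall between the glutamine levels depended on the scaling. Together they took 5.69% ± 0.630 of TPM in EIPA and 8.87% ± 0.276 in vehicle at 0.2 mM glutamine, and 10.0% ± 0.514 with IL-1a and 10.4% ± 1.17 in vehicle at 4 mM glutamine. With these mRNAs left out of the total, the members' share was higher by 1.20 points with EIPA, by 1.38 points at 0.2 mM against 4 mM glutamine and by 0.51 points with IL-1a. Within groups the shares did not always run opposite. Vehicle replicate 3 at 4 mM glutamine had the lowest share of the members, 12.1%, and the highest mitochondrial share, 12.3%. EIPA replicate 5 had the highest of both in its group, 16.5% and 6.78%, and so did vehicle replicate 5 at 0.2 mM glutamine, 14.8% and 9.24%.

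Both subunits contributed. Large-subunit members held 9.38% ± 0.195 of TPM in EIPA and 8.50% ± 0.144 in vehicle at 0.2 mM, and 7.92% ± 0.202 with IL-1a and 7.63% ± 0.289 in vehicle at 4 mM glutamine. Small-subunit members held 6.68% ± 0.194, 5.92% ± 0.127, 5.54% ± 0.108 and 5.32% ± 0.204 in the same order of groups. The ratio of large to small was 1.405 ± 0.014 in EIPA against 1.434 ± 0.013 in vehicle at 0.2 mM glutamine, where the highest EIPA library (1.418) lay just under the lowest vehicle library (1.421). At 4 mM glutamine it was 1.427 ± 0.011 with IL-1a and 1.433 ± 0.010 in vehicle, so it stayed within the spread between replicates for IL-1a and between vehicle at 0.2 mM and 4 mM glutamine.

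**Figure D1:**
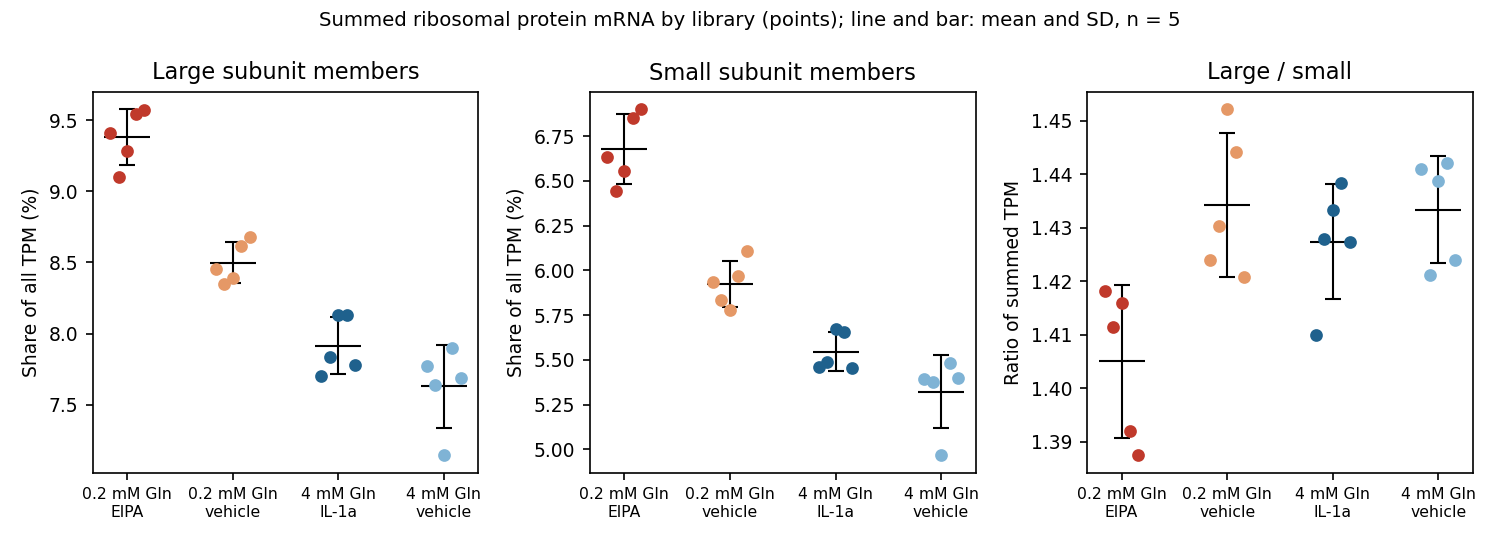
Share of all TPM (%) from large-subunit members (left) and small-subunit members (middle) and the ratio of large to small (right), on axes that do not start at 0. Points are the 5 libraries of each group, the line and bar the mean and SD; EIPA libraries lie above all others in both shares, and 1 vehicle library at 4 mM glutamine lies below the rest.

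In some libraries most members deviated the same way from their group's mean, which was not tested. In vehicle replicate 3 at 4 mM glutamine only 11 of 80 members were above their group's mean, with a median deviation of -0.11 on the log2 scale, while in replicate 4 of that group 69 were above it, with a median of 0.06. In the other 18 libraries between 19 and 64 members lay above their group's mean, and in several the split was nearly even, as in EIPA replicate 1 with 40. Single members varied little between replicates: the median coefficient of variation was 5.10% in EIPA and 4.76% in vehicle at 0.2 mM, and 4.47% with IL-1a and 5.26% in vehicle at 4 mM glutamine. Over the 20 libraries Rplp1, of the ribosomal stalk, had the highest mean (5018 TPM), followed by Rps24 (4509 TPM) and Rps2 (4488 TPM), while the paralogs Rpl22l1 and Rpl7l1 and then Rpl29 (374 TPM) were lowest. EIPA was the group with the highest mean for 49 of the 80 members, and vehicle at 4 mM glutamine the group with the lowest mean for 53. Such counts were not made over all tested genes. The median tested gene was 0.02 higher on the log2 scale with EIPA, and 0.14 higher in vehicle at 0.2 mM than at 4 mM glutamine.

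EIPA against vehicle at 0.2 mM glutamine asked how CAFs short of glutamine respond to EIPA. Macropinocytosis itself was not measured here. With EIPA 52 of the 80 members rose and 4 fell, while 24 were not called. A call is a Benjamini-Hochberg adjusted p under 0.05 in limma, run on log2(TPM + 1) over all 12350 tested genes, of which 27.4% were called higher and 21.1% lower (48.5% in either direction). The median member was 0.18 higher on the log2 scale and the median tested gene 0.02 higher. The members that rose did so by 0.12 to 0.81. With mitochondrially encoded mRNAs left out of the total the median member was 0.13 higher, and under quantile normalisation 0.10. Of the large-subunit members 29 of 48 rose and 2 fell (median 0.16), and of the small-subunit members 23 of 32 rose and 2 fell (median 0.20), or 16 and 4 under quantile normalisation. The 5 EIPA libraries lay wholly above the 5 vehicle libraries for 38 members, where 20% of all tested genes did so, and wholly below for 4, against 14.7%. Other scalings gave between 35 and 57 members higher and between 4 and 7 lower. Of all tested genes these scalings gave between 2775 and 3709 higher and between 2318 and 3131 lower. In all, 35 members, 32 higher and 3 lower, were called under all 5 scalings, which was not counted over all tested genes.

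The largest rise was that of Rpl37a (ENSMUSG00000046330, chr1:72711290-72713813 in GENCODE M21, GRCm38), a small zinc-binding protein of the large subunit. Rpl37a was at 997, 994, 983, 937 and 915 TPM in EIPA libraries, against 549.7, 552, 542, 542 and 557 TPM in vehicle libraries at 0.2 mM glutamine. Every EIPA library was far above every vehicle library, which lay close together, and the change was 0.81 ± 0.05 (log2 fold change ± SE, limma adjusted p = 2.6e-11). Rpl41 (ENSMUSG00000093674, chr10:128548114-128549305), a basic peptide at the interface of the subunits with a coding sequence of 75 nt, was at 3042, 3033, 3013, 3108 and 2785 TPM in EIPA libraries, against 1977, 1894, 1887, 1997 and 1789.8 TPM in vehicle libraries. The groups were again far apart, and Rpl41 rose by 0.65 ± 0.05 (limma adjusted p = 8.9e-10).

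Among small-subunit members Rps27, Rps4x and Rps21 rose most. Rps27 (chr3:90212522-90213651), a zinc-finger protein, was at 3716, 3568, 3668, 3752 and 3679 TPM in EIPA libraries, against 2593, 2486, 2324, 2529.9 and 2329 TPM in vehicle libraries, without overlap, and rose by 0.59 ± 0.05 (limma adjusted p = 1.4e-08). Rps4x (chrX:102184941-102189394), the X-linked form of the S4 protein, was at 2327, 2193, 2301, 2419 and 2508 TPM in EIPA libraries, against 1754, 1731, 1642, 1690.0 and 1675 TPM in vehicle libraries. All EIPA libraries were above all vehicle libraries, and Rps4x rose by 0.47 ± 0.04 (limma adjusted p = 1.4e-08). Rps21 was at 1892, 1724, 1794, 1753 and 1771 TPM in EIPA libraries, against 1372, 1350.4, 1201, 1342 and 1323 TPM in vehicle libraries, with vehicle replicate 3 low, and rose by 0.44 ± 0.07 (limma adjusted p = 2.5e-05).

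The 4 members that fell with EIPA were Rps2, Rpsa, Rpl3 and Rplp0. Rps2 (ENSMUSG00000044533, chr17:24718116-24721929), at the mRNA entry of the small subunit, was at 3829, 3776, 3514, 3619 and 3735 TPM in EIPA libraries, against 5200.1, 5179.8, 5148, 5276 and 5271 TPM in vehicle libraries. It was far lower in every EIPA library and fell by 0.50 ± 0.04 on the log2 scale (limma adjusted p = 6.2e-09). Rpsa (chr9:120127689-120132369), near the mRNA exit and also known as the laminin receptor precursor, was at 1864, 1762, 1736, 1961 and 1896 TPM in EIPA libraries, against 2329, 2292, 2170.3, 2297 and 2241 TPM in vehicle libraries, without overlap. It fell by 0.30 ± 0.04 (limma adjusted p = 6e-06). Rpl3 (chr15:80077791-80091868), which reaches toward the peptidyl transferase centre, was at 1327, 1273, 1277, 1459 and 1494 TPM in EIPA libraries, against 1606, 1559, 1656, 1633 and 1861 TPM in vehicle libraries, where replicate 5 was highest in both groups and the groups did not overlap. It fell by 0.28 ± 0.05 (limma adjusted p = 0.00016).

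The fall of Rplp0, the base of the stalk, was small and rested on the scaling. Rplp0 was at 4142, 4194, 4035, 4173 and 4568 TPM in EIPA libraries, against 4670.0, 4662, 4635, 4599.7 and 4680.4 TPM in vehicle libraries, just without overlap, and fell by 0.14 ± 0.04 (limma adjusted p = 0.0072), but its change was 0.01 under quantile normalisation (adjusted p = 0.84). Its partners Rplp1 and Rplp2, acidic proteins of the stalk that recruit translation factors, gave -0.08 ± 0.06 (limma adjusted p = 0.26) and 0.19 ± 0.05 (limma adjusted p = 0.0055), so Rplp2 rose, except under quantile normalisation (adjusted p = 0.2), and Rplp1 was not called and was at 0.21 under quantile normalisation. Of the 4 stalk genes 1 rose and 1 fell, where 27.4% of all tested genes rose and 21.1% fell, and Rpl12 was not called. Under quantile normalisation none rose and 1 fell, which there was Rpl12 and not Rplp0. The change of Rpl12 ran from -0.12 to 0.03 between scalings.

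**Figure D2:**
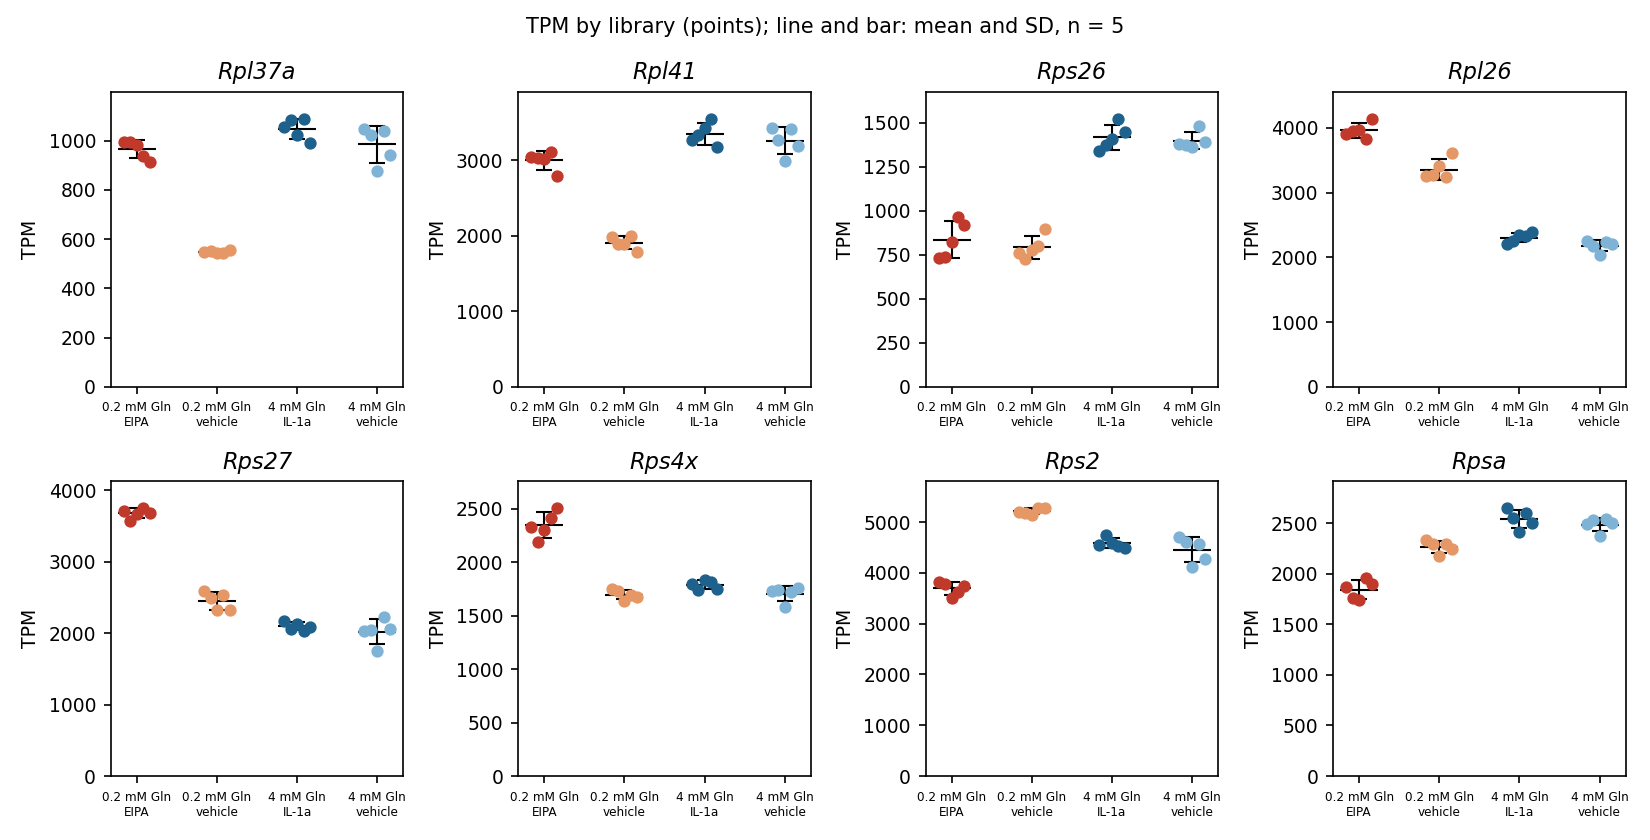
TPM (y axis, from 0) of 8 members in each library (points), by group, with the mean and SD (line and bar, n = 5). In the upper row Rpl37a, Rpl41 and Rps26 are lower, and Rpl26 is higher, in vehicle at 0.2 mM than at 4 mM glutamine; in the lower row Rps27 and Rps4x are highest, and Rps2 and Rpsa lowest, in EIPA.

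By place in the ribosome, counts are set beside those over all 80 members, of which 65.0% rose with EIPA and 5.0% fell. Of all tested genes 27.4% rose and 21.1% fell, and differences between places were not tested. At the rim of the peptide exit tunnel 7 of 8 members rose, and none fell. There Rpl39 was at 965 ± 88.7 TPM in EIPA and 781 ± 84.3 TPM in vehicle at 0.2 mM, and Rpl19 was not called at -0.05 ± 0.05 (limma adjusted p = 0.45). At the mRNA entry and exit 5 of 7 rose, led by Rps28 at 0.43 ± 0.07 (limma adjusted p = 5.5e-05), Rps2 fell, and Rps26 was not called. Of the proteins of the decoding site and beak 5 of 6 rose (3 with mitochondrially encoded genes left out), led by Rps10 at 0.29 ± 0.04 (limma adjusted p = 2.3e-06). Rpl5 and Rpl11, which carry 5S RNA into the ribosome and, when free, bind the p53 ligase Mdm2, both rose, by 0.13 ± 0.04 and 0.17 ± 0.05 (limma adjusted p = 0.013 and 0.0096), but neither was called after median-of-ratios scaling (adjusted p = 0.092 and 0.059). Rps6, the target of the S6 kinases, rose by 0.17 ± 0.05 (limma adjusted p = 0.012), a call lost under quantile normalisation (adjusted p = 0.098). Of 10 genes that cause Diamond-Blackfan anaemia in humans 8 rose, with Rps26 among those not called. With mitochondrially encoded genes left out 6 rose, and 5 did so after median-of-ratios scaling and under quantile normalisation. Rps19, the gene most often hit, gave 0.15 ± 0.06 (limma adjusted p = 0.048), a call lost in 15 of 20 fits that left out 1 library.

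The size of the EIPA change was related to the length of the coding sequence among members. Of the 10 members with at most 300 nt of coding sequence 9 rose (8 under quantile normalisation), with a median of 0.41 over the 10, and Rps27l was not called. The 70 longer members had a median of 0.16, and 43 of them rose and 4 fell. Across the 80 members, which are measured in the same libraries and are not independent, Spearman's rho between coding length and log2 fold change was -0.43 and Pearson's r -0.50. Across the 5198 other tested genes with coding sequences no longer than the longest member's, rho was 0.03, and the 245 of these with at most 300 nt had a median of 0.04. Of those 245 genes 63 rose and 46 fell, and of the 4953 longer ones 1371 rose and 1084 fell. Among members rho was -0.44 for IL-1a and 0.07 between the glutamine levels in vehicle. The 4 members that fell with EIPA had between 879 and 1209 nt of coding sequence. In that range Rpl5, with 891 nt, rose by 0.13 ± 0.04 (limma adjusted p = 0.013), a call lost after median-of-ratios scaling. Rpl6, with 888 nt, was at 0.06 ± 0.05 and not called. Rpl4, with 1257 nt the longest, rose by 0.14 ± 0.05 (limma adjusted p = 0.026), a call lost in 6 of 20 fits that left out 1 library.

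**Figure D3:**
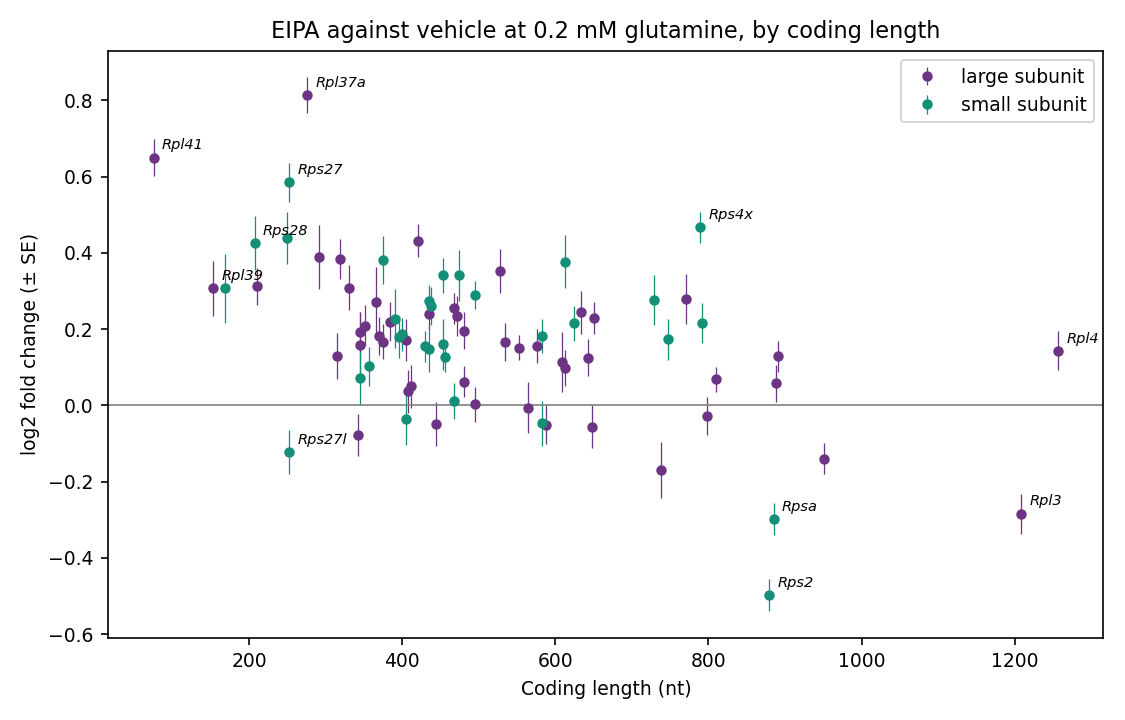
Log2 fold change of each member in EIPA against vehicle at 0.2 mM glutamine (y axis, ± SE) against the length of its coding sequence in nt (x axis), large subunit in purple and small subunit in green. Short members lie highest, except Rps27l, and the 4 that fell lie at the long end, where others, among them Rpl4, Rpl5, Rpl6 and Rps4x, lie above 0. Rplp0 is above 0 only under quantile normalisation.

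The comparison of 0.2 mM with 4 mM glutamine in vehicle asked what scarce glutamine alone did. The median tested gene was higher by 0.14 on the log2 scale at 0.2 mM, so changes are given relative to the median gene, while calls use the unshifted values. At 0.2 mM glutamine 45 members rose and 18 fell, and 17 were not called, where 45.4% of all tested genes rose and 27.9% fell (73.3% in either direction). The members' shares were 56.3% and 22.5%. Without the 3 libraries that stood apart 45 members rose and 18 fell, where 5724 and 3442 of all 12350 tested genes did. Without vehicle replicate 3 at 4 mM glutamine 45 members rose and 19 fell, where 5453 and 3363 of all tested genes did. After median-of-ratios scaling, which removes the shift, 32 rose and 27 fell, where 4385 and 4438 of all 12350 tested genes did. Under quantile normalisation 52 rose and 16 fell, where 4932 and 3988 of all 12350 tested genes did. The excess of rises over falls among members thus depended on the scaling. The median member was 0.07 above the median gene, and under quantile normalisation it was at 0.29 where the median gene was at 0.06. Members ranged from -0.98 to 0.50 around it, with an SD of 0.36 between members, against 0.67 over all tested genes. With EIPA these SDs were 0.20 and 0.42. Of the large-subunit members 26 of 48 rose and 12 fell, and of the small-subunit members 19 of 32 rose and 6 fell, or 19 and 16 and 13 and 11 after median-of-ratios scaling. Libraries at 0.2 mM lay wholly above those at 4 mM for 42 members and wholly below for 15, against 37.2% and 22.7% of all tested genes. Called under all 5 scalings were 48 members, 32 higher and 16 lower, which was not counted over all tested genes.

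Rpl37a, Rps26 and Rpl41 fell most. In vehicle, Rpl37a was at the levels given above at 0.2 mM glutamine, a mean of 549 ± 6.23 TPM, against 1049, 1023, 875, 1041 and 943 TPM at 4 mM glutamine. All libraries at 4 mM were far above all of those at 0.2 mM, and Rpl37a fell by 0.98 ± 0.05 relative to the median gene (limma adjusted p = 2.4e-12). Rps26 (ENSMUSG00000025362, chr10:128624534-128626747), which lines the mRNA exit, was at 762, 727, 776, 801 and 895 TPM at 0.2 mM, against 1381, 1373, 1363, 1483 and 1393 TPM at 4 mM glutamine. The groups were again far apart, and Rps26 fell by 0.96 ± 0.07 (limma adjusted p = 1.1e-09). Rpl41 averaged 1909 ± 82.6 TPM at 0.2 mM, against 3429.9, 3269, 2988, 3410.4 and 3188 TPM at 4 mM glutamine, without overlap, and fell by 0.91 ± 0.05 (limma adjusted p = 1e-11).

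Rps28 and Rpl24 followed. Rps28, beside Rps26 at the mRNA exit, was at 1723, 1773, 1699, 1769.8 and 2155 TPM at 0.2 mM, against 2943, 2878, 2863, 2369 and 3168 TPM at 4 mM glutamine, and fell by 0.78 ± 0.07 (limma adjusted p = 7.4e-08). Replicate 5 was the highest at 0.2 mM and replicate 4 the lowest at 4 mM, and even these did not overlap. Rpl24, which forms a bridge to the small subunit, was at 941, 919, 959.6, 938 and 1096 TPM at 0.2 mM, against 1526, 1493, 1397, 1519 and 1378 TPM at 4 mM glutamine, and fell by 0.73 ± 0.05 without overlap (limma adjusted p = 2.5e-09). Rpl13, Rpl8 and Rps25 fell by 0.60, 0.59 and 0.55 relative to the median gene.

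Rpl18, Rpl26, Rpl19, Rpl30 and Rpl13a, all of the large subunit, rose most. Rpl18 (chr7:45715457-45720836) was at 1368, 1404, 1495, 1442 and 1727 TPM at 0.2 mM, against 948, 945, 885, 1004 and 1004 TPM at 4 mM glutamine, with replicate 5 highest at 0.2 mM and no overlap, a change of 0.50 ± 0.07 relative to the median gene (limma adjusted p = 3.8e-08). Rpl26 (chr11:68901583-68906989), at the tunnel exit, was at 3252, 3264, 3412, 3241 and 3605 TPM at 0.2 mM, against 2245, 2169, 2038, 2241 and 2202 TPM at 4 mM glutamine. All libraries at 0.2 mM were far above all of those at 4 mM, and the change of Rpl26 was 0.49 ± 0.04 (limma adjusted p = 3.8e-11). Rpl19, also at the exit rim, was at 3569, 3585, 3937, 3639.5 and 4148 TPM at 0.2 mM, against 2455, 2365, 2523, 2571 and 2423 TPM at 4 mM glutamine, a change of 0.48 ± 0.05 without overlap (limma adjusted p = 1.1e-09).

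Rpl30, a kink-turn binding protein, was at 2652, 2452, 2505, 2721 and 2369 TPM at 0.2 mM, against 1829, 1708, 1380.4, 1699 and 1742 TPM at 4 mM glutamine, where replicate 3 was low, and changed by 0.47 ± 0.09 (limma adjusted p = 2.6e-06). Rpl13a (chr7:45125558-45128761), which in human monocytes leaves the ribosome to repress inflammatory mRNAs, was at 2877, 2955, 2863, 3015 and 3542 TPM at 0.2 mM, against 1821, 1942, 1889, 2149 and 2272 TPM at 4 mM glutamine. In both groups replicate 5 was highest, the groups did not overlap, and the change was 0.46 ± 0.08 (limma adjusted p = 7.4e-07).

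**Figure D4:**
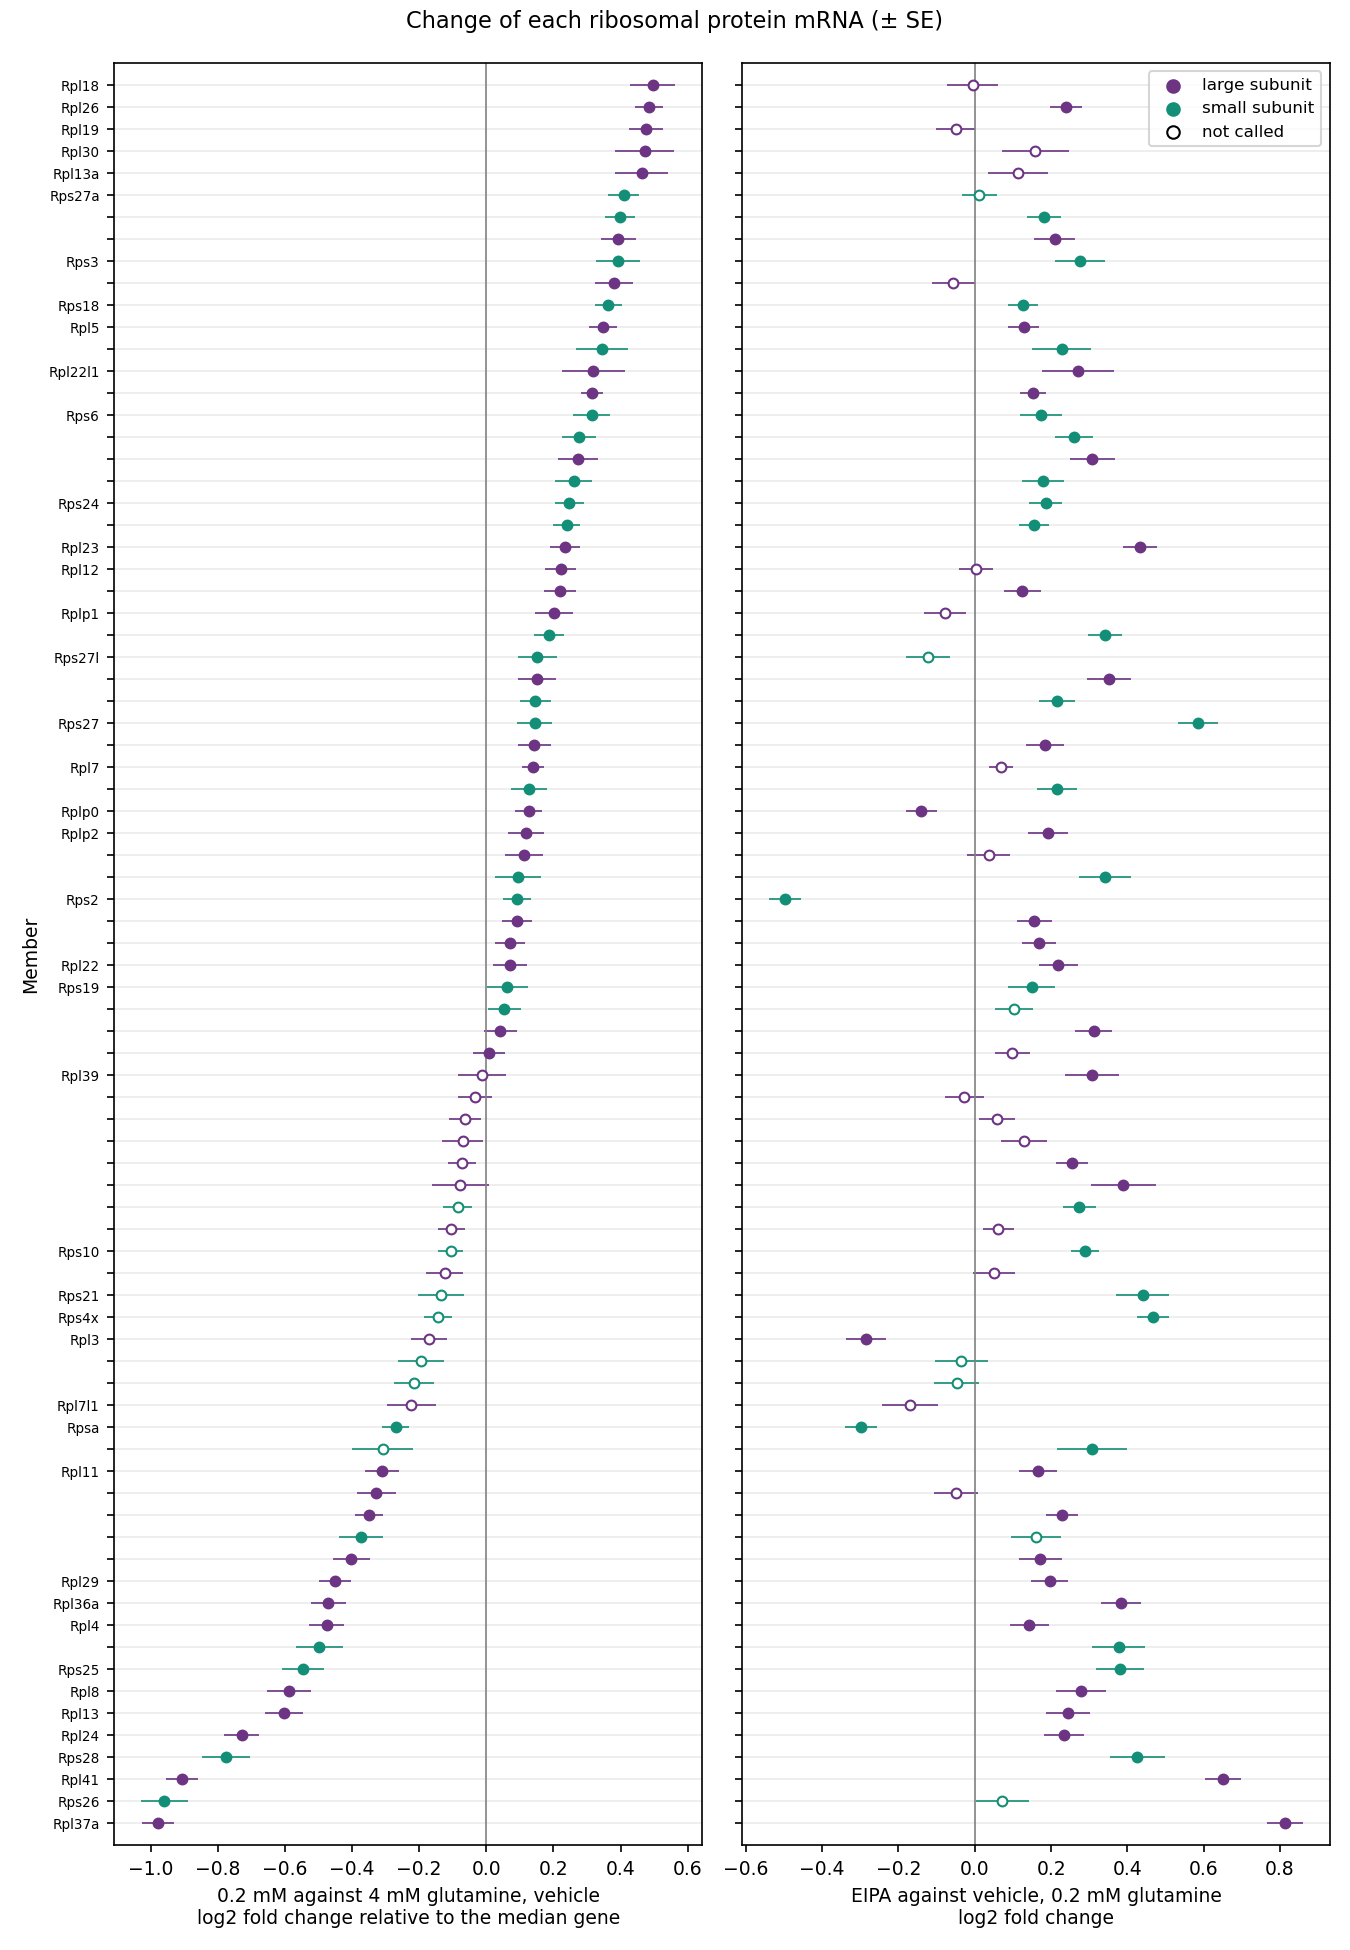
Log2 fold change (± SE) of the 80 members, each in a row and labelled where named in the text, at 0.2 mM against 4 mM glutamine in vehicle, relative to the median gene (left), and in EIPA against vehicle at 0.2 mM glutamine (right), ordered by the left panel; filled points were called by limma, and both panels share the vehicle libraries at 0.2 mM glutamine. Members run from Rpl18 at 0.50 to Rpl37a at -0.98 on the left; on the right most lie above 0, with Rps2, Rpsa, Rpl3 and Rplp0 called below it (Rplp0 at 0.01 under quantile normalisation).

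Neighbours in the ribosome did not always move alike at 0.2 mM against 4 mM glutamine. There 45 of all 80 members rose and 18 fell, and 45.4% of all tested genes rose and 27.9% fell. Differences between places were not tested. Of the 5S RNA carriers, Rpl5 rose and Rpl11 fell: Rpl5 was at 2195 ± 57.3 TPM at 0.2 mM and 1569 ± 46.6 TPM at 4 mM glutamine, and Rpl11 was at 1165 ± 50.3 TPM at 0.2 mM and 1316 ± 97.0 TPM at 4 mM glutamine (limma adjusted p = 1e-09 and 0.0038). At the mRNA entry and exit 4 of 7 rose and 3 fell, from Rps3 at 0.39 ± 0.07 to Rps26, and after median-of-ratios scaling 2 rose and 3 fell. All 4 stalk genes rose (3 after median-of-ratios scaling), led by Rpl12 at 0.22 ± 0.05 (limma adjusted p = 4.4e-07), and so did 6 of 8 at the exit rim, with 2 not called (4 rose after median-of-ratios scaling). Of the decoding site and beak 4 of 6 rose and none fell, led by Rps27a, which is made as a fusion with ubiquitin, at 0.41 ± 0.05; after median-of-ratios scaling 4 rose and 1 fell. Of the Diamond-Blackfan anaemia genes 6 of 10 rose and 2, Rpl11 and Rps26, fell, or 5 and 4 after median-of-ratios scaling. Rps6 changed by 0.31 ± 0.05 (limma adjusted p = 2.4e-07).

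The EIPA and the glutamine comparisons share the vehicle libraries at 0.2 mM glutamine, so a low level there raises the first and lowers the second, and only group levels are set side by side. Rpl37a was at 965 ± 36.8 TPM in EIPA, 549 ± 6.23 TPM in vehicle at 0.2 mM and 986 ± 74.96 TPM in vehicle at 4 mM glutamine. For Rpl41 these levels were 2996 ± 123, 1909 ± 82.6 and 3257 ± 181 TPM, and for Rps28 2445 ± 156, 1824 ± 188 and 2844 ± 292 TPM. Rps26 had a different order, with 836 ± 105 TPM in EIPA, 792 ± 63.4 TPM in vehicle at 0.2 mM and 1399 ± 48.4 TPM in vehicle at 4 mM glutamine, and its EIPA change of 0.07 ± 0.07 was not called (limma adjusted p = 0.41). Rpl26 had 3959 ± 114, 3355 ± 156 and 2179 ± 84.8 TPM in these groups, and Rps2 had 3695 ± 127, 5215 ± 56.9 and 4455 ± 244 TPM. EIPA was not tested against vehicle at 4 mM glutamine.

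The comparison of IL-1a with its vehicle, both at 4 mM glutamine, asked for the response to an inflammatory cytokine with glutamine in supply. No member was called in either direction by limma, where 0.259% of all tested genes rose and 0.0243% fell (0.283% in either direction). An unadjusted p under 0.05 was found for 7 of 80 members and for 744 of all 12350 tested genes. Differences were small: 76 members were higher with IL-1a and 4 lower, with a median of 0.06, where the median tested gene was 0.01 higher, 73 to 78 members were higher under the other scalings, and the SE of single members lay between 0.03 and 0.09. Rpl22l1 had the largest difference, 0.23 ± 0.09, with 111, 105, 118, 116 and 151 TPM with IL-1a and 90.4, 94.8, 89.5, 114 and 121 TPM in vehicle, which overlapped (limma adjusted p = 0.66). Only Rpl22, Rpl36a and Rps18 had IL-1a libraries wholly above those of vehicle, and no member had them wholly below, where 0.777% and 0.599% of all tested genes did. The median rested in part on vehicle replicate 3 at 4 mM glutamine, without which it was 0.03, and it was 0.09 with all 80 members higher and none called when the 3 libraries that stood apart were left out. The glutamine comparison shares these vehicle libraries.

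The difference between the EIPA response and the IL-1a response was tested directly. The EIPA response was higher than the IL-1a response for 22 members and lower for 4, where 16.3% and 12.6% of all tested genes were (28.9% in either direction), and the median difference was 0.13, against 0.01 for all tested genes. It was 0.05 under quantile normalisation and 0.08 with mitochondrially encoded genes left out. Without a filter on low values 14 were higher, under quantile normalisation 12 were higher and 7 lower, and without the 3 libraries that stood apart 13 were higher. The largest differences were those of Rpl37a (0.72 ± 0.07, limma adjusted p = 1.3e-07), Rpl41 (0.61 ± 0.07) and Rps27 (0.53 ± 0.07), then Rps4x and Rpl23. Rps2 (-0.54 ± 0.06, limma adjusted p = 1.3e-06), Rpl3 (-0.36 ± 0.07), Rpsa (-0.33 ± 0.06) and Rplp0 (-0.16 ± 0.06, adjusted p = 0.044) had lower EIPA responses. The Rplp0 call was lost in 16 of 20 fits that left out 1 library, with adjusted p up to 0.087, and its difference was 0.04 under quantile normalisation. At 4 mM glutamine Rpl37a was at 1048 ± 41.2 TPM with IL-1a and 986 ± 74.96 TPM in vehicle, and Rps2 at 4586 ± 97.3 TPM with IL-1a and 4455 ± 244 TPM in vehicle.

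Paralogs stayed far below their partners in every library, and their ratio was not constant. Rps27l, a p53 target that can replace Rps27, stood at 11.001% ± 0.997 of the Rps27 level in EIPA and 17.9% ± 0.526 in vehicle at 0.2 mM glutamine, with libraries from 10.2% to 12.6% and from 17.4% to 18.7%, and at 18.1% ± 1.12 with IL-1a and 17.9% ± 1.19 in vehicle at 4 mM glutamine. Rps27 rose with EIPA, while Rps27l averaged 404 ± 30.6 TPM in EIPA and 439 ± 14.9 TPM in vehicle at 0.2 mM and was not called (-0.12 ± 0.06, limma adjusted p = 0.087), although it fell after median-of-ratios scaling (adjusted p = 0.046). Of the 3 paralogs tested 1, Rpl22l1, rose with EIPA, and 1 rose and 2 fell after median-of-ratios scaling. With mitochondrially encoded genes left out none rose and 2 fell (limma adjusted p = 0.055 for Rpl22l1). Its call was also lost without EIPA replicate 5 (adjusted p = 0.057) and without vehicle replicate 1 or 5 at 0.2 mM glutamine (0.052 and 0.053). Rpl22l1 stood at 13.04% ± 0.997 of Rpl22 in EIPA and 12.6% ± 0.910 in vehicle at 0.2 mM, and at 11.6% ± 1.75 with IL-1a and 10.6% ± 1.78 in vehicle at 4 mM glutamine. Both Rpl22l1 and Rpl22 rose at 0.2 mM against 4 mM glutamine (limma adjusted p = 0.00019 and 0.0011), Rpl22 not after median-of-ratios scaling (adjusted p = 0.35). Rpl7l1, which has a role in making the large subunit, stood at 8.11% ± 0.429 of Rpl7 in EIPA and 9.62% ± 1.28 in vehicle at 0.2 mM, and at 11.7% ± 0.637 with IL-1a and 12.3% ± 0.968 in vehicle at 4 mM glutamine. These ratios were not tested. GENCODE M21 holds 301 pseudogenes named after ribosomal protein genes, and expressed copies outside the naming rule, such as Rpl10-ps3 at 147 TPM and Rps27rt at 82.6 TPM on average, can share reads with members, so that single levels are uncertain.

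Among ribosomal proteins that the naming rule leaves out, Fau, a ubiquitin-like fusion of a small-subunit protein, was at 1176 ± 50.7 TPM in EIPA and 894 ± 64.9 TPM in vehicle at 0.2 mM glutamine and rose by 0.40 ± 0.05 (limma adjusted p = 4.3e-06), and fell by 0.38 ± 0.05 at 0.2 mM against 4 mM glutamine relative to the median gene (limma adjusted p = 0.00033, or 0.056 under quantile normalisation). Rack1, a scaffold on the small subunit, rose by 0.34 ± 0.05 with EIPA (limma adjusted p = 6.9e-06). Rpl36al was not called with EIPA and rose by 0.32 ± 0.07 at 0.2 mM glutamine relative to the median gene (limma adjusted p = 3.7e-06). Fau and Rack1 were also among 22 other mRNAs with a TOP motif, mainly translation factors. Of these 22, 11 rose and 6 fell with EIPA (median 0.10), where 27.4% of all tested genes rose and 21.1% fell. They were led by Fau and by Vim, the gene of the filament protein vimentin, which fell by 0.56 ± 0.10 (limma adjusted p = 0.0001). At 0.2 mM against 4 mM glutamine 11 rose and 4 fell, where 45.4% of all tested genes rose and 27.9% fell. Their median was -0.03 relative to the median gene. After median-of-ratios scaling 3 rose and 8 fell, where 4385 and 4438 of all 12350 tested genes did.

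Of 69 genes for factors that assemble ribosomes in the nucleolus and cytosol, 7 rose and 27 fell with EIPA, where 27.4% of all tested genes rose and 21.1% fell. Their median was -0.14, against 0.18 for the members. Heatr3, which helps bring Rpl5 into the nucleus, fell by 1.08 ± 0.07 (limma adjusted p = 6.9e-11), and Imp3, of the small-subunit processome, rose by 0.44 ± 0.05 (limma adjusted p = 5.1e-07). At 0.2 mM against 4 mM glutamine 54 of the 69 rose and 1, the helicase gene Ddx18, fell, with a median of 0.34 relative to the median gene. There 45.4% of all tested genes rose and 27.9% fell. After median-of-ratios scaling 41 of the 69 rose and 6 fell, where 4385 and 4438 of all 12350 tested genes did. Utp14a, of the small-subunit processome, rose most, by 1.07 ± 0.09 relative to the median gene (limma adjusted p = 1.2e-10).

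**Figure D5:**
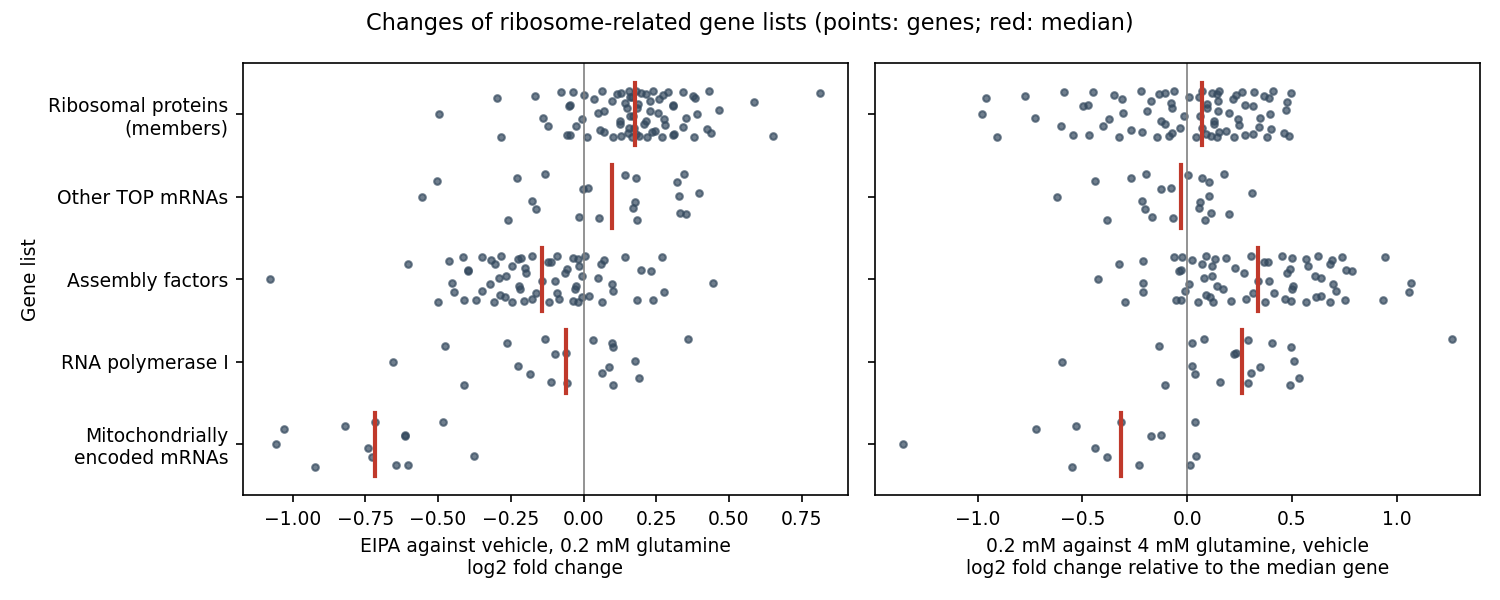
Log2 fold change of each gene (points) of the members and 4 related lists in EIPA against vehicle at 0.2 mM glutamine (left) and at 0.2 mM against 4 mM glutamine in vehicle, relative to the median gene (right), with the list median as a red line; the lists overlap in part and the panels share vehicle libraries. With EIPA the members' median (0.18) lies above 0 and those of the assembly factors (-0.14) and mitochondrially encoded mRNAs (-0.72) below.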

How the data were processed

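RNA from 20 libraries was prepared with polyA selection, per the labels' protocols. The deposited table holds TPM values per gene that the authors made, with RSEM and the mm10 build named in the submitters' processing notes and no version; the aligner, the annotation and the fragment lengths were not given in the sources used here, and TPM of short mRNAs depends on them. TPM keeps no depth, so no depth per library or counting error can be given.

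Values were tested as log2(TPM + 1) with limma 3.58.1 (R 4.3.3) in 1 model of 4 groups, with an intensity trend, over 12350 genes with at least 1 TPM in 5 libraries, with Benjamini-Hochberg adjustment over all of them and a threshold of 0.05. Fold changes are on the log2(TPM + 1) scale and understate those of low genes. The counts of called members, their medians and the changes of most named genes were recomputed under alternatives. These were a pseudocount of 0.1, no filter, a mean of at least 5 TPM, median-of-ratios scaling and quantile normalisation. Totals without mitochondrially encoded genes or without the members, no intensity trend and a replicate block were also used. So were fits leaving out the 3 libraries that stood apart and fits leaving out each library. List and length-class counts were recomputed only under the scalings. The members' share of TPM was recomputed only without mitochondrially encoded genes and leaving out single libraries. Ratios, correlations, counts of groups without overlap and motif shares were not recomputed.

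Coding lengths and gene positions came from GENCODE M21 (GRCm38), with the principal transcript of each gene, and promoters from RefSeq (GRCm38.p6). Members and lists were chosen with earlier results of these data known. Named genes were the 5 largest called changes in each direction of a comparison, a fixed panel of members and paralogs, the leading called gene of each of 13 lists, the highest, the lowest and those nearest the filter, and members called against the majority. A part of that rule on correlation across all libraries was not applied, since the libraries fall into separate groups, and deviations within groups are given instead. Rps4l was not analysed here, and a few genes are not reported here. The test was checked on simulated data.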

Additional observations from a re-analysis of the deposited data

Results flagged for a closer look

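Single libraries stood far from the other 4 of their group, by the ratio of their gap to the group's range, for 12 values of 100 groups tested, where chance flags about 1 in 20. Of these, 5 were in replicate 3 of vehicle at 4 mM glutamine: the members' share of TPM was 12.1% and that of small-subunit members 4.97%, and Rps4x was at 1580.4 TPM, Rpsa at 2373 TPM and Rplp0 at 3602 TPM, all low. Rps26 was high there in replicate 4, at 1483 TPM. In vehicle at 0.2 mM glutamine, replicate 5 was high for Rps28 (2155 TPM) and Rpl24 (1096 TPM) and low for Rpl22 (969 TPM), and replicate 3 was low for Rps21 (1201 TPM). In EIPA, replicate 5 was high for Rpl18 (1728 TPM) and Rps6 (3133 TPM).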

How the results depend on the processing

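Each of 70 values of named genes was recomputed under 30 alternatives. Of these recomputed values 2029 kept their direction and their side of the threshold, 63 lost the call, 5 gained one (Rps27l with EIPA) and 3 changed sign, all under quantile normalisation. With EIPA the change of Rplp0 was 0.0142 and that of Rplp1 0.2114, and the difference between responses for Rplp0 was 0.0354. Calls were lost for Rps19 (20 alternatives), Rpl4 (10), Rpl22l1 (4, with an adjusted p of 0.057 at most), Rpl5 (3), Rps6 (2), Rplp2, Rpl11 and Rplp0 (1 each) with EIPA, for Rpl22 and Fau (1 each) at 0.2 mM against 4 mM glutamine and for Rplp0 (19) in the difference between responses. Fewer members differed between the responses of EIPA and IL-1a without a filter (14 members higher), without the 3 libraries that stood apart (13) and under quantile normalisation (12 higher and 7 lower). Quantile normalisation also gave 7 members lower with EIPA and medians of 0.10 for EIPA, 0.29 for 0.2 mM against 4 mM glutamine and 0.05 for the difference between responses, with a large minus small median of -0.0785 for glutamine. Median-of-ratios scaling gave a glutamine median of 0.0582. Leaving out mitochondrially encoded genes gave an EIPA median of 0.13 and a share difference of 1.20 points. Leaving out single libraries moved the large minus small median between -0.0871 and -0.0495 for the difference between responses and between -0.059 and -0.0273 for glutamine. The cause of these shifts was not tested. The replicate numbers were not taken as pairs, since not every same-numbered pair correlated over 0.1, with 4 of 5 pairs for EIPA, 4 of 5 for IL-1a and 2 of 5 for glutamine doing so. In the same order 8 of 10, 5 of 10 and 8 of 10 libraries correlated best with their own number, a hint from the data and not the design. With a replicate block 56 members rose and 6 fell with EIPA, 45 rose and 19 fell for glutamine, none were called for IL-1a, and 27 were higher and 5 lower for the difference between responses. TPM keeps no depth, so what depth limits cannot be stated.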

Other observations

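RNA polymerase I transcribes the large ribosomal RNAs. Of 20 genes for its subunits and factors, 15 rose and 1 fell at 0.2 mM against 4 mM glutamine in vehicle, with a median of 0.26 relative to the median gene. There 45.4% of all tested genes rose and 27.9% fell, and with EIPA 27.4% rose and 21.1% fell. Taf1a, of the promoter selectivity factor, rose by 1.26 ± 0.07 (limma adjusted p = 3.5e-13), to 39.5 TPM at 0.2 mM against 14.3 TPM at 4 mM glutamine. With EIPA 2 of the 20 rose and 5 fell, led by Taf1c at 0.36 ± 0.11 (limma adjusted p = 0.012) and by the subunit gene Cd3eap at -0.66 ± 0.11 (limma adjusted p = 6.3e-05), and 1 rose and 5 fell after median-of-ratios scaling.

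Of 18 genes of mTORC1 signalling and of the proteins that repress translation of TOP mRNAs, 3 rose and 5 fell with EIPA, and 10 rose and 4 fell at 0.2 mM against 4 mM glutamine. Of all tested genes 27.4% rose and 21.1% fell with EIPA, and 45.4% rose and 27.9% fell at 0.2 mM glutamine, so the counts of this list lie near the background. Ddit4 (REDD1), an inhibitor of mTORC1, was at 60.1 ± 7.99 TPM in EIPA and 11.2 ± 3.38 TPM in vehicle at 0.2 mM glutamine and rose by 2.38 ± 0.20 (limma adjusted p = 7.7e-09). It fell by 1.18 ± 0.20 at 0.2 mM against 4 mM glutamine relative to the median gene (limma adjusted p = 0.0001), a comparison that shares the vehicle libraries at 0.2 mM. Cnbp, which binds TOP mRNAs, rose by 0.85 relative to the median gene at 0.2 mM glutamine (limma adjusted p = 1.7e-10), and Rps6kb2, an S6 kinase, fell by 0.49 with EIPA (limma adjusted p = 0.0023).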
